A study of Mus musculus with 6 samples.

Results

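The genes described here are the Wnt and R-spondin pathway genes of the fetal mouse liver: ligands, receptors, signal transducers, target genes and inhibitors. They were taken from a list of 49 names, matched through Entrez gene numbers to the features of an expression array, and 48 were measured among 23279 genes. The unmatched name, Tcf7, was not analysed here. By role the measured members are 10 Wnt ligands, 4 R-spondins, 5 R-spondin receptors and associated ubiquitin ligases, 12 Frizzled and Lrp receptors, 5 intracellular transducers and TCF factors, 5 feedback targets and 7 secreted inhibitors. RNA came from whole livers dissected at embryonic day 11.5 and was hybridised to 6 Affymetrix arrays, 3 per group. One group is labelled Stab2Cre;Gata4 knockout and carries Stab2-Cre with both Gata4 alleles floxed. The control group is labelled Stab2Cre;Gata4 heterozygous, so the Cre transgene is named for both groups, and a heterozygous embryo of the stated cross has 1 floxed and 1 wild-type Gata4 allele. The Cre is driven by Stab2, which encodes a scavenger receptor made by sinusoidal endothelial cells, whereas the RNA is that of the whole organ. The labels call the replicates biological and give neither the number of embryos per array nor their litters.

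Wnt proteins are secreted, lipid-modified ligands that bind Frizzled receptors together with the coreceptors Lrp5 and Lrp6. Binding stabilises beta-catenin, the product of Ctnnb1, which then activates genes in the nucleus together with TCF/LEF factors. R-spondins amplify the signal: through Lgr4, Lgr5 or Lgr6 they remove the membrane ubiquitin ligases Znrf3 and Rnf43, which otherwise clear Frizzleds from the cell surface. Several target genes, among them Axin2, feed back to damp the pathway. In adult liver, endothelial cells around the central vein supply Wnt2, Wnt9b and Rspo3 to neighbouring hepatocytes, and in the embryo Wnt signals take part in growth of the organ.

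The labels' own gene, Gata4, read 10.38, 10.26 and 10.64 in the livers labelled knockout (log2 value, replicates 1 to 3) and 9.90, 9.96 and 9.87 in the controls. It was higher, not lower, where the labels name a knockout (log2 difference 0.51, SE 0.12, limma adjusted p = 0.0409). No source used here says whether its probes lie in the deleted part, so each direction below rests on the labels. The Gata4 call held only in the fit without labelled knockout replicate 2 among the 6 fits that leave out 1 array (adjusted p of 0.0366 to 0.144). Stab2 was lower (−1.30, adjusted p = 0.0161), and the hepatoblast products Alb and Afp read 13.29 to 13.51 in the 6 arrays, near the top of the scale at 13.91. Embryo sex was unbalanced: Xist read 10.19 to 10.71 in control replicate 2 and all 3 livers labelled knockout, but 3.58 and 3.96 in control replicates 1 and 3, where the Y-linked gene Uty read 8.18 and 8.15. Labelled knockout replicate 2 stood apart in Barx1, a gene of stomach mesenchyme, at 10.70 against 7.52 to 8.41 in the other arrays, and in Sox2, a gene of foregut epithelium, at 6.02 against 3.85 to 4.04.

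Livers labelled knockout had higher expression of R-spondin 3, of 4 Frizzled receptors, of the factors Tcf7l1 and Lef1 and of the decoy receptors Sfrp1 and Sfrp2. None of the 10 Wnt ligands and none of the 5 genes grouped here as feedback targets passed the test. Outside the members, 3 of 15 other reported Wnt targets rose. In all, 9 of the 48 members rose and 0 fell at a limma adjusted p under 0.05, against 3.59% of all 23279 genes higher and 2.77% lower. Without adjustment, at a p under 0.05, 17 members were higher and 2 lower (11.1% and 11.5% of all genes). Group values were fully separate in 16 members that were higher and 2 that were lower, against 13.0% and 14.3% of all genes. Across the 48 members the median log2 difference was 0.27, and it was −0.01 across all genes. The members' median relative to the control mean read 0.20, 0.28 and 0.32 in labelled knockout replicates 1, 2 and 3, and 0.03, 0.01 and −0.06 in control replicates 1, 2 and 3. Labelled knockout replicate 2 held the highest value of 20 members and control replicate 3 the lowest of 16. Without labelled knockout replicate 2, 6 members rose, 4 of them among the 9, against 2.67% of all genes. The count was 8 without replicate 1 of that group (785 of all genes higher) and 3 without its replicate 3 (175). It was 3 without control replicate 1 (300) or 2 (212), 0 without control replicate 3 (25) and 0 with a sex term. Numbers in brackets are all genes higher in the same fit, against 836 in the fit of all 6 arrays. Calls over all genes split into 836 higher and 644 lower, and into 3444 higher and 203 lower when each array was centred on 10 housekeeping genes, a scaling that raised the median of all genes by 0.28. With that scaling 22 members rose and 0 fell, and the 9 named calls stayed higher under each scaling tried.

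**Figure D1:**
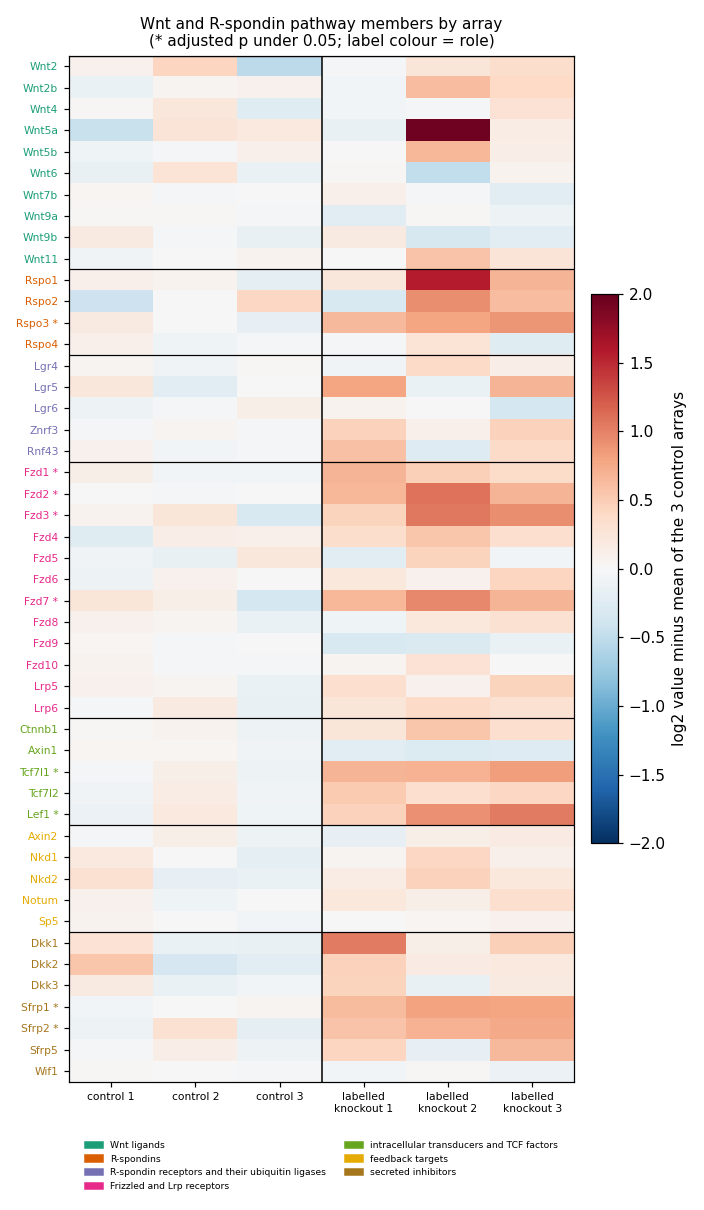
Heat map of the 48 measured members (top to bottom, ordered and coloured by role) in the 6 arrays (left to right); colour is the log2 value minus the mean of the 3 control arrays, and an asterisk marks a limma adjusted p under 0.05. Rspo3, Fzd1, Fzd2, Fzd3, Fzd7, Tcf7l1, Lef1, Sfrp1 and Sfrp2 are red in all 3 arrays labelled knockout, whereas Wnt5a is deep red in labelled knockout replicate 2 alone.

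None of the 10 Wnt ligands passed the limma test, with 0 at an unadjusted p under 0.05 either, and the values of the groups overlapped in all 10. Wnt2, a ligand of the sinusoidal and central vein endothelium, read 5.34, 5.60 and 5.72 in livers labelled knockout and 5.45, 5.80 and 4.85 in controls. The difference of 0.19 had a 95% interval of −0.33 to 0.71 and turned to −0.25 against control replicate 2 alone, the control of the same sex as the livers labelled knockout. Wnt9b, the other ligand of central vein endothelium, read 5.14, 4.64 and 4.75 against 5.15, 4.92 and 4.82 (−0.12, interval −0.47 to 0.23). Neither gene's values separate the groups, and each interval still leaves room for a difference of more than 0.4 in at least 1 direction. Wnt5a, a ligand of the beta-catenin-independent branch, read 6.34 in labelled knockout replicate 2 and 3.94 to 4.65 in the other 5 arrays. Its difference of 0.65 (interval −0.50 to 1.79, adjusted p = 0.521) fell to −0.00 when that array was left out. The array is the one with the high Barx1 and Sox2 values, and their part in the Wnt5a value was not tested. Wnt2b, a mesenchymal ligand, Wnt5b and Wnt11 also had their highest value in that array, at 5.81, 5.68 and 6.60. Their differences were 0.32 (adjusted p = 0.318), 0.27 (0.402) and 0.28 (0.302). Wnt4 differed by 0.07, Wnt6 by −0.13, Wnt7b by −0.06 and Wnt9a by −0.10 (adjusted p of 0.64 to 0.855). The median over the ligands was 0.13, and −0.05 against control replicate 2 alone. Of the 10 ligand features 7 had a mean below the array median of 5.43, a range in which signal and background are hard to separate, so these values do not show that a ligand was absent or unaltered.

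The R-spondins rose in 1 of 4 cases, against 3.59% of all genes. Rspo3, which in adult liver comes from central vein endothelium and stellate cells, read 7.85, 7.99 and 8.10 in livers labelled knockout and 7.39, 7.20 and 7.04 in controls. The groups were 0.46 apart at their closest, and the rise was 1.71-fold (0.77, SE 0.12, interval 0.50 to 1.05, limma adjusted p = 0.0161). Against control replicate 2 alone the difference was 0.78. Leaving out 1 array removed the Rspo3 call in 3 fits, those without labelled knockout replicate 3 (adjusted p = 0.0594), control replicate 2 (0.0548) or control replicate 3 (0.0699), with differences of 0.71, 0.77 and 0.69. Rspo1, which mesothelial cells make in several organs, read 7.61, 8.95 and 8.06 against 7.49, 7.45 and 7.21. Its groups did not overlap either, but the lowest liver labelled knockout was only 0.12 above the highest control, and the difference of 0.82 had an interval of 0.14 to 1.5 and did not pass (adjusted p = 0.147). Without labelled knockout replicate 2, the array highest in Rspo1, it was 0.45 (adjusted p = 0.163), and without replicate 1 of that group, the lowest of the 3, it passed at 1.12 (adjusted p = 0.0458). Rspo2 read 4.92, 6.15 and 5.84 against 4.81, 5.22 and 5.64 and overlapped (0.41, adjusted p = 0.53). Rspo4 differed by −0.00 (adjusted p = 0.992).

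The receptors of R-spondins and the ubiquitin ligases they act on were not called, at 0 of 5, against 3.59% of all genes higher. At an unadjusted p under 0.05, 1 was higher, against 11.1% of all genes. Lgr5, a receptor that is itself a Wnt target and marks stem cells in several tissues, read 7.96, 7.04 and 7.85 against 7.40, 6.96 and 7.16. Znrf3, whose gene is also induced by Wnt signals, read 8.37, 8.01 and 8.38 against 7.88, 7.97 and 7.88, and Rnf43 read 8.22, 7.38 and 8.02 against 7.72, 7.58 and 7.60. In all 3 genes labelled knockout replicates 1 and 3 were above every control, while replicate 2 lay at or near the controls. The differences were 0.44 for Lgr5 (adjusted p = 0.334), 0.34 for Znrf3 (0.139) and 0.24 for Rnf43 (0.558). Without labelled knockout replicate 2 they were 0.73 (adjusted p = 0.0381), 0.46 (0.0452) and 0.49 (0.0553), so Lgr5 and Znrf3 passed there and Rnf43 did not. The hepatoblast marker list was likewise lowest in replicate 2 of that group, at 0.31, 0.02 and 0.42 in labelled knockout replicates 1, 2 and 3 and −0.02 to 0.04 in controls, with 1 of 13 markers called, and its part in these values was not tested. Lgr4 (0.15, adjusted p = 0.564) and Lgr6 (−0.09, adjusted p = 0.754) did not pass.

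Of the 12 Frizzled and Lrp receptors 4 rose and 0 fell in limma, against 3.59% and 2.77% of all genes. At an unadjusted p under 0.05, 7 were higher and 1 lower, against 11.1% and 11.5% of all genes. Fzd2, a receptor shared by the beta-catenin and the beta-catenin-independent branches, read 6.94, 7.37 and 6.96 in livers labelled knockout and 6.29, 6.27 and 6.29 in controls. The controls spanned 0.03, and the rise was 1.75-fold (0.81, SE 0.13, adjusted p = 0.017). Fzd7, a receptor of stem and progenitor cells in many tissues, read 8.92, 9.22 and 8.94 against 8.50, 8.38 and 7.91 and rose 1.70-fold (0.77, SE 0.17, adjusted p = 0.0374). Fzd3, known from axon guidance and planar polarity, read 6.89, 7.49 and 7.37 against 6.50, 6.68 and 6.13 and rose 1.76-fold (0.81, SE 0.19, adjusted p = 0.0456). Fzd1 read 8.69, 8.50 and 8.38 against 8.12, 7.95 and 7.96 and rose 1.42-fold (0.51, SE 0.11, adjusted p = 0.0383). In each of these 4 genes every liver labelled knockout was above every control. Fzd1 and Fzd7 lost their call without any 1 of the 6 arrays, with adjusted p-values of 0.0667 to 0.137 and of 0.053 to 0.0988. The Fzd2 call was lost without control replicate 1, 2 or 3 (0.0503, 0.0562 and 0.0736). The Fzd3 call was lost without labelled knockout replicate 2 (0.0983) or 3 (0.133) and without control replicate 1 (0.103), 2 (0.0741) or 3 (0.149).

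The other receptors did not pass. Fzd4, the receptor of the ligand Norrin, read 8.58, 8.78 and 8.57 against 7.995, 8.37 and 8.34, with no overlap (0.41, interval 0.12 to 0.70, adjusted p = 0.101). The coreceptor Lrp6 read 10.25, 10.39 and 10.30 against 9.96, 10.18 and 9.86, again with no overlap (0.31, adjusted p = 0.137), and Lrp5 differed by 0.29 (adjusted p = 0.208). Fzd9 went the other way, at 4.08, 4.09 and 4.24 against 4.42, 4.35 and 4.38 (−0.24, adjusted p = 0.161), in a feature well below the array median, and turned to 0.04 with housekeeping centring. Fzd5 (0.06), Fzd6 (0.24), Fzd8 (0.14) and Fzd10 (0.12) had overlapping groups. The median over the 12 receptors was 0.30, and 0.22 against control replicate 2 alone.

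**Figure D2:**
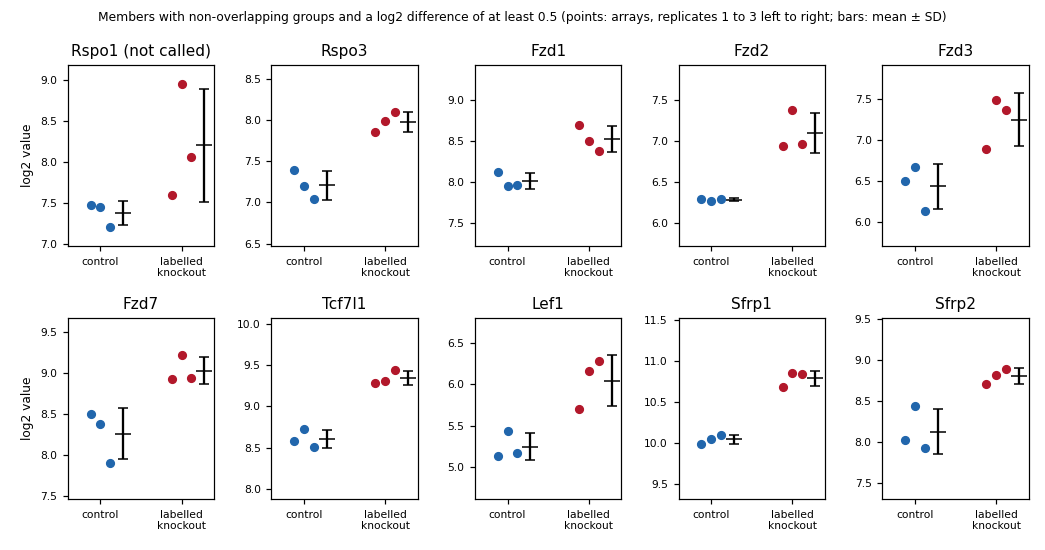
Log2 values of the 9 members that passed the test and of Rspo1, whose groups did not overlap but which did not pass; points are arrays (controls blue, livers labelled knockout red, replicates 1 to 3 from left to right), black bars the mean ± SD of 3 arrays, and every panel spans 2.2 log2 units. In each panel every red point lies above every blue one, and the Rspo1 panel shows the spread from 7.61 to 8.95 among the livers labelled knockout.

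Among the signal transducers and TCF factors 2 of 5 rose, against 3.59% of all genes, both of them DNA-binding partners of beta-catenin. Tcf7l1, which mostly represses Wnt targets in the absence of a signal, read 9.28, 9.31 and 9.44 in livers labelled knockout and 8.59, 8.73 and 8.50 in controls. The groups were well apart, with a 1.67-fold rise (0.74, SE 0.10, adjusted p = 0.0126), and the call was lost only without control replicate 3 (0.0602) among the fits that leave out 1 array. Lef1, an activating partner, read 5.70, 6.16 and 6.28 against 5.13, 5.43 and 5.16 and rose 1.75-fold (0.81, SE 0.16, adjusted p = 0.0315). Its call held without labelled knockout replicate 1 alone and had adjusted p-values of 0.0596 to 0.121 in the other 5 such fits, without labelled knockout replicate 2 or 3 or any 1 control. Tcf7l2, the TCF factor of metabolic zonation in adult liver, read 9.63, 9.44 and 9.51 against 9.02, 9.25 and 9.02. Its groups did not overlap, and it lay just outside the threshold (0.43, SE 0.11, adjusted p = 0.0536). Ctnnb1 read 11.50, 11.81 and 11.60 against 11.28, 11.33 and 11.17, also without overlap (0.38, adjusted p = 0.0842). Axin1, the scaffold of the complex that degrades beta-catenin, read 7.55, 7.50 and 7.52 against 7.82, 7.82 and 7.71, lower in all 3 livers labelled knockout (−0.26, adjusted p = 0.125), and turned to 0.02 with housekeeping centring.

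Promoter sequences were available for 32 of the 48 members in a RefSeq table of GRCm38.p6, as windows of 300 bases from 250 before to 50 after an annotated start. They were searched on both strands for a GATA motif, the letters GATA with A or T before and A or G after them, and for a TCF motif, the letters CTTTG followed by 2 bases that are each A or T. The motifs can share bases, as 1 pair of matches did in the Sp5 window. At least 1 window held the GATA letters in 8 of the 32 members, 25%, against 33.0% of all 27025 genes in the table, and the TCF letters in 7, 21.9%, against 18.9%. Per window the shares were 19.5% of 41 against 29.8% of 32851 for GATA and 17.1% against 16.9% for TCF. Of the 9 members that rose, 5 are in the table, and 2 of them held GATA letters and 2 TCF letters. A match is a string of letters, not a bound site, and its absence concerns this window only. The windows below belong to members that rose and differ in these letters, with matches in capitals and the strand of transcription written 5′ to 3′. The Fzd1 window, chr5:4758167-4758466 on the minus strand, holds 2 GATA matches, and that of Fzd7, chr1:59481897-59482196 on the plus strand, 1 TCF match. Lef1 has 4 annotated windows, of which that farthest downstream, chr3:131156044-131156343 on the plus strand, holds 2 GATA matches and 1 TCF match and the other 3 hold neither. The Tcf7l1 window, chr6:72788996-72789295 on the minus strand, holds neither.
Fzd1: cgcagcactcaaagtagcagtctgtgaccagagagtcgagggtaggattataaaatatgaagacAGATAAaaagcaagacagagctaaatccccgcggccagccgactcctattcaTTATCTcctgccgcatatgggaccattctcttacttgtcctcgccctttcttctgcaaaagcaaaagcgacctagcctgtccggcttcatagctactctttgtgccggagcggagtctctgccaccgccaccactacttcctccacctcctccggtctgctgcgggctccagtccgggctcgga
Fzd7: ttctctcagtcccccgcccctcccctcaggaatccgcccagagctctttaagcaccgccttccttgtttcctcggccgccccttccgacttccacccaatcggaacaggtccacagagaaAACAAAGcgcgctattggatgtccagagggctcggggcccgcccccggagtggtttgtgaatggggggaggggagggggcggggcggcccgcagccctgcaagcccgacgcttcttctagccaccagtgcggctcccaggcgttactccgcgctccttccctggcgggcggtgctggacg
Lef1: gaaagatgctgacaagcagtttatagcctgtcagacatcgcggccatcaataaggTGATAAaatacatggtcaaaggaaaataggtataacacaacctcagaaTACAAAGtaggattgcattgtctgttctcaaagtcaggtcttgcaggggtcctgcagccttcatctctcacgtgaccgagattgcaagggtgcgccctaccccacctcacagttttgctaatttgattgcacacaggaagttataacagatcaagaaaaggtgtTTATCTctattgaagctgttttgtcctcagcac
Tcf7l1: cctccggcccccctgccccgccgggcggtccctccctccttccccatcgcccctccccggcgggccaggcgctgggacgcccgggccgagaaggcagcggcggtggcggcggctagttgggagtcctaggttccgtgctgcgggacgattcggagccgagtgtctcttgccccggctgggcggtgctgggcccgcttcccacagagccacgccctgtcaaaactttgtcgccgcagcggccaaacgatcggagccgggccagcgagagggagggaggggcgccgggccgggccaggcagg

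The feedback targets, which read out beta-catenin signalling in many tissues, did not pass in any of 5 cases, and 0 were past an unadjusted p under 0.05 in limma. Axin2, the most widely used reporter gene of the pathway, read 6.23, 6.53 and 6.56 in livers labelled knockout and 6.38, 6.53 and 6.30 in controls. The groups overlapped throughout, and the difference of 0.04 had an interval of −0.24 to 0.31, which leaves out a change as large as that of Rspo3 or Lef1 in the whole organ. It was −0.09 against control replicate 2 alone. Sp5, a target that represses other targets, differed by 0.04 (interval −0.15 to 0.24). Its feature lay below the array median, as did those of Nkd2 and Notum, 3 of the 5 in all. Nkd1, an inhibitor of Dishevelled, read 6.66, 7.02 and 6.71 against 6.79, 6.61 and 6.41 (0.19, interval −0.12 to 0.51), and its relative Nkd2 differed by 0.27 (interval −0.07 to 0.61). Notum, an enzyme that removes the lipid from Wnt proteins, read 4.40, 4.30 and 4.52 against 4.27, 4.10 and 4.19, without overlap but 0.04 apart at the closest (0.22, adjusted p = 0.236). The median over the 5 was 0.19, and 0.08 without labelled knockout replicate 2. In whole liver a change confined to a rare cell type would be diluted, and fewer cells of a type cannot be told apart from less RNA per cell.

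Secreted inhibitors rose in 2 of 7 cases, against 3.59% of all genes. Both are Sfrp genes, whose products bind Wnt proteins outside the cell. Sfrp1 read 10.68, 10.85 and 10.84 in livers labelled knockout and 9.99, 10.05 and 10.10 in controls, the smallest p among the members. It rose 1.68-fold (0.74, SE 0.09, interval 0.53 to 0.96, adjusted p = 0.0106), by 0.74 against control replicate 2 as well, and lost its call only without control replicate 3 (0.0536) among the fits without 1 array. Sfrp2 read 8.70, 8.82 and 8.89 against 8.02, 8.43 and 7.93 and rose 1.6-fold (0.68, SE 0.14, adjusted p = 0.0345). Against control replicate 2, the highest control, the difference in Sfrp2 was 0.37, and the call was lost without labelled knockout replicate 2 (0.0677) or 3 (0.106) or control replicate 1 (0.0987) or 3 (0.123). Dkk1, a secreted antagonist of Lrp5 and Lrp6, read 9.004, 8.08 and 8.45 against 8.26, 7.83 and 7.81. Replicate 2 of the livers labelled knockout was below control replicate 1, so the groups overlapped (0.54, interval 0.02 to 1.07, adjusted p = 0.209). Dkk2 (0.27), Dkk3 (0.15) and Sfrp5 (0.31) overlapped too, and Wif1 differed by −0.05 with an interval of −0.25 to 0.15.

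**Figure D3:**
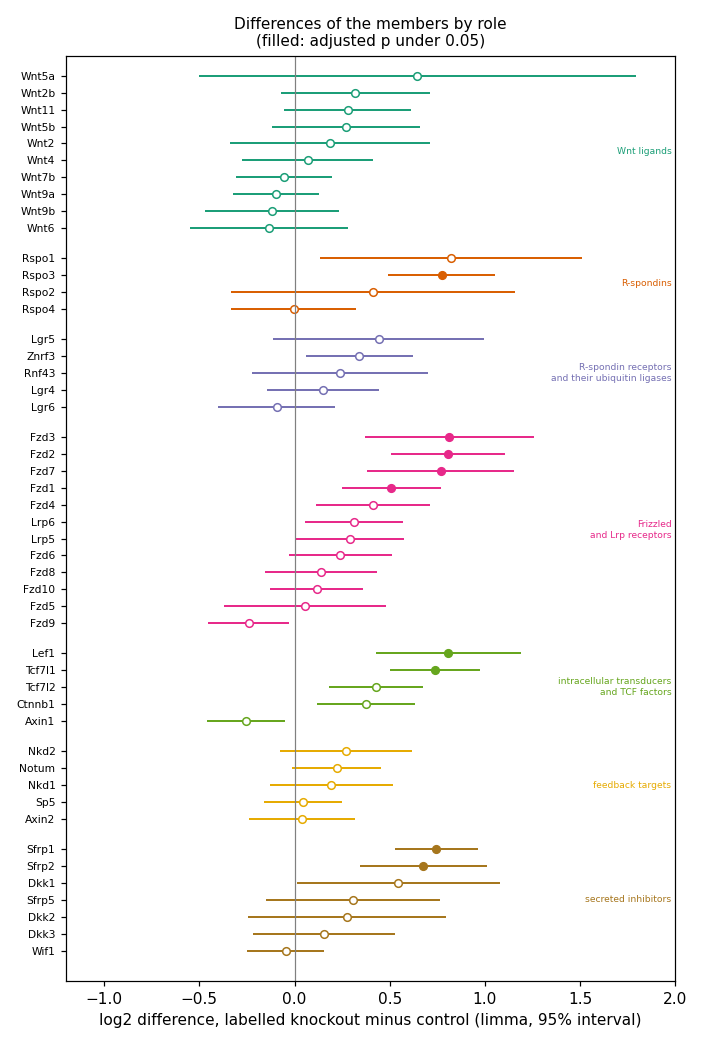
Log2 difference of each member between livers labelled knockout and controls (points) with its 95% interval from limma (lines), grouped and coloured by role, 3 arrays per group; filled points have an adjusted p under 0.05. The filled points lie between 0.51 for Fzd1 and 0.81 for Fzd3, and the intervals of all 10 Wnt ligands and all 5 feedback targets cross 0.

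Of 83 further genes of the pathway, 14 rose and 0 fell in limma, against 3.59% and 2.77% of all genes. At an unadjusted p under 0.05, 33 were higher and 5 lower, against 11.1% and 11.5% of all genes. The median difference of the 83 was 0.22. Membrane coreceptors led: 5 of 12 rose. Ror2, a receptor of Wnt5a, read 8.47, 9.25 and 8.47 in livers labelled knockout and 7.68, 7.87 and 7.46 in controls, a 2.08-fold rise (1.06, SE 0.22, adjusted p = 0.0328). Reck and Adgra2, which together form the Wnt7 coreceptor of brain endothelium, rose by 0.68 (adjusted p = 0.0161) and 0.60 (adjusted p = 0.0303). Ptk7, a polarity coreceptor, rose by 0.71 (adjusted p = 0.049) and the X-linked heparan sulphate proteoglycan Gpc3 by 0.51 (adjusted p = 0.0229). Its relative Gpc4, also X-linked, read 5.98, 5.70 and 5.72 against 6.08, 6.89 and 6.78, lower without overlap, and did not pass (−0.78, adjusted p = 0.0634). Of 11 other ligands and secretion genes 1 rose, Porcn, the enzyme that attaches the lipid to Wnt proteins and is X-linked (0.43, adjusted p = 0.0322). Wls, the carrier of Wnt proteins to the surface, read 8.26, 8.58 and 8.42 against 7.99, 8.07 and 7.85 and missed the threshold (0.45, adjusted p = 0.0559), as did Gsk3b (0.43, adjusted p = 0.0561) and Tspan12, a partner of Fzd4 (0.52, adjusted p = 0.0604). Of 23 intracellular components 3 rose, the corepressor Tle1 (0.67, adjusted p = 0.0128), the kinase Csnk1e (0.60) and the coactivator Bcl9 (0.66), and of 11 polarity genes 2 rose, Vangl2 (0.59, adjusted p = 0.0447) and Daam2 (0.49, adjusted p = 0.0306). Of 11 other inhibitors 0 passed in limma, with 2 higher and 1 lower without adjustment. Leaving out 1 array at a time, Tle1 failed the threshold once, without control replicate 3 (adjusted p = 0.0614), and Reck without labelled knockout replicate 3 or control replicate 2 or 3 (up to 0.056). Gpc3 and Ror2 lost theirs without labelled knockout replicate 3 or any 1 control (up to 0.0961 and 0.124), Adgra2, Daam2, Csnk1e and Ptk7 in every such fit but that without labelled knockout replicate 1 (up to 0.105, 0.119, 0.128 and 0.165), and Porcn, Bcl9 and Vangl2 in all 6 (up to 0.123, 0.144 and 0.155). Of the 83, leaving out control replicate 1, 2 or 3 left 3, 2 or 0 that rose (300, 212 or 25 of all genes). Leaving out replicate 1, 2 or 3 of the livers labelled knockout left 15, 8 or 1 (785, 621 or 175 of all genes).

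Marker lists of other cells moved between the same groups. The counts below stand against 3.59% of all genes that rose and 2.77% that fell. Of 13 markers of liver mesenchyme and stellate cells 5 rose and 0 fell, and their summed linear level was 15068 to 15163 in livers labelled knockout and 9702 to 10504 in controls. Of 12 markers of all endothelium 4 rose and 0 fell (5195 to 6487 against 4003 to 4602), while of 11 sinusoidal endothelial markers 0 rose and 7 fell (2239 to 2854 against 4388 to 5008). Erythroid markers fell in 4 of 10 cases (7696 to 8390 against 10033 to 15795) and macrophage and myeloid markers in 8 of 10 (1054 to 1874 against 2848 to 3995). Of 11 mesothelial markers 2 rose and of 13 hepatoblast markers 1. The median difference of 0.27 over the Wnt and R-spondin members compares with 0.52 for mesenchyme, 0.35 for all endothelium, 0.34 for mesothelium and 0.20 for hepatoblasts. The part of each cell type in the members' differences was not tested. Of 9 heart muscle markers 0 passed in limma and 1 was lower without adjustment (Myh7), with summed levels of 572.5 to 3190 against 666 to 4250, and control replicate 2 was the highest array. Of 7 foregut and gut markers 0 passed, with 0 past an unadjusted p under 0.05. Their summed level was 1893 in labelled knockout replicate 2 and 344 to 504 in the other arrays. Barx1 and Sox2 are among the 7, and such a sum follows its brightest gene. The median over the 7 relative to the control mean was 0.13 in labelled knockout replicate 2, the highest array, and −0.14 to 0.07 in the others. Of the 7 genes, 5 had a mean below the array median. Whether neighbouring tissue was dissected with that liver was not tested.

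**Figure D4:**
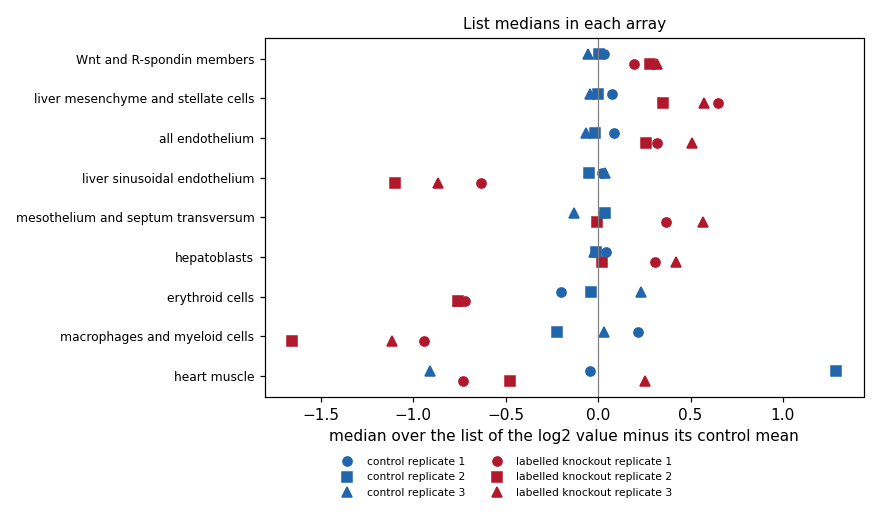
Median over each gene list of the log2 value minus its control mean, for the Wnt and R-spondin members and 8 marker lists of cell types; each point is 1 array, controls in blue, livers labelled knockout in red, and the shape gives the replicate number. The members lie at 0.20 to 0.32 in livers labelled knockout and at −0.06 to 0.03 in controls, mesenchymal and endothelial lists lie to the same side, and sinusoidal, erythroid and macrophage lists to the other.

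With a sex term 0 of the 48 members passed in limma, against 0.0129% of all genes, which are 3 genes. In that fit the difference of a gene equals that of the 3 livers labelled knockout from control replicate 2, the 1 control of their sex. That control also had the highest summed level of heart muscle markers, 4250, and its part in these differences was not tested. All 9 members that rose had a positive difference in that fit, from 0.37 for Sfrp2 to 0.82 for Fzd2. Because every liver labelled knockout was above every control in each of them, this sign adds nothing to the 9 calls. Their adjusted p-values were 0.155 to 0.386. The sign was the same as without the sex term in 44 of the 48 members. The 2 fits share the livers labelled knockout and control replicate 2, so much of that match is built in.

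**Figure D5:**
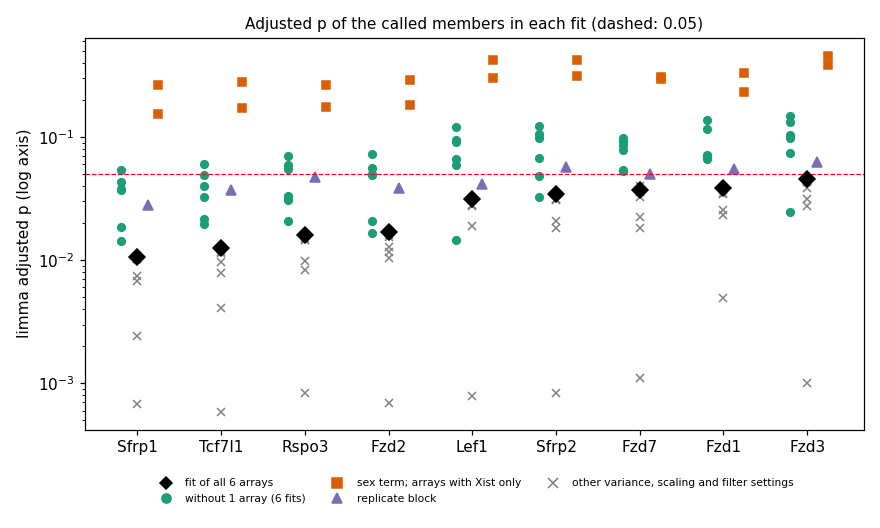
Limma adjusted p (log axis) of the 9 members that rose, in the fit of all 6 arrays (black diamonds), in 6 fits without 1 array (green circles), with a sex term and on the 4 Xist-expressing arrays only (orange squares), with the replicate block (purple triangles) and under the other settings (grey crosses); the dashed line is 0.05. Sfrp1 and Tcf7l1 stay below the line in 5 of the 6 fits without 1 array, Fzd1 and Fzd7 in 0, and every orange square is above it.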

How the data were processed

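The labels describe total RNA of fetal liver at embryonic day 11.5 on 6 Affymetrix arrays. The deposited values are log2 expression values that the authors made with RMA, per the submitters' processing notes, with no version. RMA quantile-normalises, and the sorted values were identical in all 6 arrays, so a shift shared by most genes cannot be seen. The number of arrays, 3 per group, is among the limits of the stated precision. Of 24479 features 23281 were named, by the GRCm38.p6 table of RefSeq genes or else the platform annotation, and 1198 were not. For genes with several features the brightest was kept, which left 23279 genes.

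The test was limma (version 3.58.1, under R 4.3.3, lmFit and eBayes, no trend, no covariate, 4 residual and 4.06 prior degrees of freedom) of labelled knockout minus control, with Benjamini-Hochberg adjustment over all 23279 genes and a threshold of 0.05. Errors are moderated standard errors and intervals are 95%. No dim feature was left out. The method was checked on simulated data. A rank test of 3 against 3 arrays cannot give a two-sided exact p below 0.1, so for single genes the model over all genes is used. The p-values measure the spread between these arrays. The members, the 83 further pathway genes, the marker lists and the naming rule (every measured member is named, values per array for those called or clearly separate; of the further genes up to 12 called and the 3 next by p) were chosen with earlier results of these data known. Of the further genes, Ptk7, Vangl2, Gpc4, Wnt10b, Glul, Cyp2e1, Cyp1a2, Oat, Lect2, Rhbg, Ccnd1, Myc, Cd44, Tnfrsf19, Rgn and Slc1a2, and of the marker genes Myh7, lie outside that rule and were named after their values were seen. The marker genes Stab2, Alb, Afp, Xist, Uty, Barx1 and Sox2 lie outside it too. Barx1 and Sox2 were named because labelled knockout replicate 2 stood apart in them. Lists are described by counts and medians and were not tested as sets. Summed levels are sums of 2 to the power of the log2 value. Alternatives were other variance settings, scalings, filters on dim genes, array weights, a sex term read from Xist and Y-linked genes, a replicate block, other thresholds and leaving out each array.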

Additional observations from a re-analysis of the deposited data

How the results depend on the processing

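The count of members that rose, 9, became 22 with housekeeping centring, 5 with the replicate block, 0 with a sex term or on the 4 arrays with Xist only, and 0 (without control replicate 3) to 8 (without labelled knockout replicate 1) in fits without 1 array. It stayed within 1.5 times under the other settings, and 0 members fell in any fit. Over all genes 25 rose without control replicate 3 and 785 without labelled knockout replicate 1, against 836 in the fit of all 6 arrays. The count of further pathway genes that rose, 14, became 38 with housekeeping centring, 6 with the replicate block, 0 with a sex term or with Xist arrays only, 23 at an adjusted p under 0.1, and 0 to 15 without 1 array. The count that fell, 0, became 1 with the dimmest 50% of genes left out, 2 at an adjusted p under 0.1, and 0 to 1 without 1 array. Deviations of same-numbered arrays correlated at −0.05, −0.01 and −0.08, and those of differently numbered arrays at −0.05 to 0.11. Same-numbered arrays were thus no more alike than others, but the labels do not say whether they shared a litter.

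With housekeeping centring, which moved all genes by 0.28, list medians were 0.55 for all members, 0.41 for ligands, 0.52 for R-spondin receptors and ligases, 0.58 for Frizzled and Lrp receptors, 0.71 for transducers, 0.47 for feedback targets and 0.59 for inhibitors. With the dimmest 50% left out, which left 30 members, they were 0.36 for members, 0.36 for Frizzled and Lrp receptors, 0.12 for feedback targets and 0.54 for inhibitors. With a sex term, and equally with Xist arrays only, they were −0.051 for ligands, 0.22 for Frizzled and Lrp receptors and 0.31 for transducers. Without 1 array they ran from −0.057 to 0.22 for ligands, 0.30 to 0.80 for R-spondins, 0.17 to 0.46 for R-spondin receptors and ligases, 0.24 to 0.36 for Frizzled and Lrp receptors, 0.083 to 0.26 for feedback targets and 0.24 to 0.55 for inhibitors.

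The signs that reversed belonged to members that did not pass. With a sex term or Xist arrays only these were Wnt2 (−0.25), Wnt4 (−0.15), Axin2 (−0.085) and Rspo4 (0.077). With housekeeping centring they were Wnt6 (0.15), Wnt7b (0.22), Wnt9a (0.18), Wnt9b (0.16), Rspo4 (0.27), Lgr6 (0.18), Fzd9 (0.037), Axin1 (0.022) and Wif1 (0.23), and with array weights Fzd5 (−0.017). Without 1 array the range was −0.071 to 0.40 for Wnt2, −0.054 to 0.18 for Wnt4, −0.0049 to 1.05 for Wnt5a, −0.23 to 0.047 for Wnt6, −0.14 to 0.031 for Wnt7b, −0.15 to 0.12 for Rspo4, −0.17 to 0.033 for Lgr6, −0.14 to 0.20 for Fzd5 and −0.023 to 0.14 for Axin2. The cause of these changes was not tested. Fits without 1 array and the Xist-only fit have fewer arrays, and the latter rests on 1 control that is assumed to vary like the livers labelled knockout. Signal over background is unknown, which limits the 17 members whose mean is below the array median.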

Other observations

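Genes known as Wnt targets outside the feedback group were also read. Of 15 measured, 3 rose and 0 fell in limma, against 3.59% and 2.77% of all genes. At an unadjusted p under 0.05, 5 were higher and 1 lower, against 11.1% and 11.5% of all genes. Tbx3, a factor of hepatoblast growth, read 8.95, 8.91 and 8.95 in livers labelled knockout and 8.37, 8.22 and 8.04 in controls (0.73, adjusted p = 0.0142). Sox9, a biliary and progenitor factor, read 7.84, 8.54 and 7.87 against 7.29, 7.18 and 7.16 (0.88, adjusted p = 0.0336), and the inhibitor of differentiation Id2 rose by 0.54 (adjusted p = 0.0247). Both Sox9 and Id2 lost their call without labelled knockout replicate 3 or any 1 control, with adjusted p-values up to 0.122 and 0.0988, and Tbx3 lost it without labelled knockout replicate 3 or control replicate 3 (up to 0.0605). The genes that mark the central zone of adult liver did not pass: Glul differed by 0.04, Cyp2e1 by 0.02, Cyp1a2 by −0.02, Oat by −0.19, Lect2 by 0.33 and Rhbg by 0.43. Cyp2e1 and Cyp1a2 read 3.73 to 4.14 in the 6 arrays, far below the array median. Ccnd1 (0.36, adjusted p = 0.1) and Myc (0.11) did not pass either, and Cd44 differed by −0.42 (adjusted p = 0.185). Tnfrsf19 had the largest difference among those of the 15 that did not pass, without overlap of the groups (0.76, adjusted p = 0.0759). The X-linked Rgn (0.40, adjusted p = 0.329) and Slc1a2 (0.14, adjusted p = 0.471) did not pass.

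Among ligand genes outside the members, Wnt10b read 4.24, 4.13 and 4.11 in livers labelled knockout and 4.53, 4.41 and 4.50 in controls, lower without overlap (−0.32, adjusted p = 0.0779). It was named after its values were seen.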
